A study of Homo sapiens with 16 samples.

Results

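The genes described here are PARP9, PARP10, PARP11, PARP12, PARP14, PARP15 and DTX3L, 7 genes of protein ADP-ribosylation that are linked to interferon. Their members in these data are H3K27ac regions, that is, 1000 bp windows at ATAC-seq peaks whose nearest gene is one of the 7 and whose distance to that gene's TSS is at most 50000 bp. By that rule, 33 of 151654 regions were members, and 9 further regions of these genes lay beyond the distance limit. PARP12 had 10 regions, PARP14 and PARP15 had 8 each, PARP11 had 3, PARP9 had 2, and DTX3L and PARP10 had 1 each. A region is named by its gene and by its distance in bp from the TSS used in the annotation, with a minus sign for upstream.

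The study compared WT and USP18-/- THP-1 cells, a human monocytic AML line, with and without IFNα. H3K27ac, a histone mark of active promoters and enhancers, was measured by ChIP-seq in 2 libraries per group. The WT cells are labelled as carrying only Cas9, while the treatment protocol names a control sgRNA for them, and the USP18-/- cells were made by CRISPR and grown out from sorted single cells, so clonal differences and the loss of USP18 cannot be told apart. Each genotype was either untreated or given IFNα at 1000 U/ml for 6 h, and all 4 groups share the THP-1 background. How many clones went into the USP18-/- libraries is not given in the sources used here. In bulk libraries, a stronger mark in every cell and a mark in more cells cannot be told apart.

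PARP enzymes take ADP-ribose from NAD+ and attach it to proteins or nucleic acids. Most of the PARPs described here attach single ADP-ribose units, and PARP9, PARP14 and PARP15 also carry macrodomains, folds that bind ADP-ribose. DTX3L is an E3 ubiquitin ligase of the Deltex family that forms a heterodimer with PARP9. Type I IFN signals from its receptor to genes that carry the interferon-stimulated response element (ISRE), and USP18 restrains this signal at the receptor. The study also reports that nuclear USP18 lowers the binding of STAT2 and IRF9, transcription factors of this signal, to the ISRE.

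Of the 7 genes, 6 had promoters in the RefSeq table used here (GRCh38.p14), as stretches of 300 bases that reach from 250 bases before the start to 50 bases after it. The ISRE core was searched as GAAANNGAAA on both strands. The promoters of DTX3L, PARP14 and PARP12 each held 1 match, and PARP11's held none. They are shown, each on the strand of its gene and 5′ to 3′, because the first 3 belong to windows that rose with IFN in USP18-/- cells and the last to 1 that did not. The 2 PARP15 promoters in the table also held no match and are not shown. Capitals mark the ISRE core match, which for PARP12 reads on the opposite strand.
DTX3L (chr3:122564088-122564387, plus strand): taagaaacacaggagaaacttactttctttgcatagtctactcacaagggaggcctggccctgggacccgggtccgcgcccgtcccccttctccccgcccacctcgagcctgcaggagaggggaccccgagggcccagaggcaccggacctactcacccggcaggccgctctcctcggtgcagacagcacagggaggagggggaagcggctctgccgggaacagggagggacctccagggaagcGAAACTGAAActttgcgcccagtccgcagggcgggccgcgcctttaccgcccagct
PARP14 (chr3:122680589-122680888, plus strand): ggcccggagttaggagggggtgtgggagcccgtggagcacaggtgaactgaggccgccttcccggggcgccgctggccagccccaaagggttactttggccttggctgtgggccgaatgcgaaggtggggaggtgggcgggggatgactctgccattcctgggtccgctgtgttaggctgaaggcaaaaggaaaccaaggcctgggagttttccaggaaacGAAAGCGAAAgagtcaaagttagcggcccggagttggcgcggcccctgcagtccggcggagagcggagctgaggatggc
PARP12 (chr7:140062902-140063201, minus strand): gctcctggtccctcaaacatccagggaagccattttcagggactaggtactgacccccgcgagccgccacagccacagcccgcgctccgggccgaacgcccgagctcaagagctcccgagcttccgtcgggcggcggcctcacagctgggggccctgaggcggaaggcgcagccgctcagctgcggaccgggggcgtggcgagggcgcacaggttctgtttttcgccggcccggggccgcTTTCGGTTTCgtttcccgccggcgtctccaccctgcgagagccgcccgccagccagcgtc
PARP11 (chr12:3873350-3873649, minus strand): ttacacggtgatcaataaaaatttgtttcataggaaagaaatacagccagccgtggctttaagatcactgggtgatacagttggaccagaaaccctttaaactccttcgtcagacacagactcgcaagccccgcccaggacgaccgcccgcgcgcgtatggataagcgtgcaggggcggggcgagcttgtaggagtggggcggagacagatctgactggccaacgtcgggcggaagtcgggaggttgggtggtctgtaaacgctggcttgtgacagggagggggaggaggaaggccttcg

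In DTX3L, the match began 6 bases before the start site and ran across it. Of 2 RefSeq starts of PARP9, on the opposite strand, the nearer lay 38 bp away, and the match began 41 bases before it. The other PARP9 start lay 40 bp from the centre of PARP9 -68, and its promoter held no match. In PARP14, the match began 29 bases before the start and followed a TTCNNNGAA match (the gamma-activated site, GAS) and a GGAANNGAAA match (the ETS-IRF composite), each overlapping the next. In PARP12, it began 10 bases before the RefSeq start. Among all 35116 RefSeq promoters in the table, 3.57% held an ISRE core.

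Away from promoters, 4 tested member regions held an ISRE core. The 60 hg38 bases around each are shown because 3 of these regions rose with IFN in USP18-/- cells and the last did not. Capitals mark the match, and each is written on the strand that reads GAAA first.
PARP15 +6357 (chr3:122583949-122584008, minus strand): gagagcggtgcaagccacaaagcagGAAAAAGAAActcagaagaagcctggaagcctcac
PARP15 -5415 (chr3:122610124-122610183, minus strand): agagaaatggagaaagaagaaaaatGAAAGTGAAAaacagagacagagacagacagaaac
PARP14 -18988 (chr3:122661915-122661974, plus strand): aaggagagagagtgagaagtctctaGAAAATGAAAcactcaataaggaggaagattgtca
PARP14 +10536 (chr3:122691446-122691505, minus strand): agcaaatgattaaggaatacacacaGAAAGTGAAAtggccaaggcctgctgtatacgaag

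In the libraries, 9046141 to 12935453.5 tags fell in regions. Levels are given as CPM, counts scaled to library size after TMM normalization, in windows of equal length. Of 10 monocytic marker genes, 8 had a tested region within 1000 bp of the TSS, and they ran from CSF1R at 1.55 to 3.27 CPM to SPI1 at 64.6 to 131 CPM. T cell and erythroid markers had no region there, as did the monocytic genes MPO and FCGR1A, and the B cell gene CD79A stood at 4.51 to 7.51 CPM. Of 4 epithelial or stromal markers, COL1A1 stood at 1.98 to 5.26 CPM and KRT8 at 0.355 to 1.44 CPM. At the USP18 promoter, mean levels were 7.74 and 16.5 CPM in WT cells and 8.34 and 45.4 CPM in USP18-/- cells, each without and with IFN, which does not test the deletion itself.

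The member regions called for IFN were all higher with it. In WT cells, 7 of 28 tested member regions rose, against 0.344% of 123276 tested regions. No member fell, against 0.0381% of all. In USP18-/- cells, 12 members rose, against 7.14% of all regions, and 0 fell, against 4.28%. A region was called at a change of over 2-fold with an adjusted p under 0.05 from edgeR's quasi-likelihood test. All 7 regions that rose in WT cells also rose in USP18-/- cells, and 5 regions were called in USP18-/- cells without being called in WT cells. The median member log2 fold change was 0.13 in WT cells and 1.10 in USP18-/- cells, against -0.01 in both over all tested regions. With p under 0.05 before adjustment, 1 member was lower with IFN in WT cells and 0 in USP18-/- cells. DESeq2 called 6 members higher in WT cells, 12 in USP18-/- cells and 0 lower in either, and gave no adjusted p for 15 and 9 of the 28. With scaling to the sum of counts, the split of all regions in USP18-/- cells went from 8797 higher and 5278 lower to 7461 and 7882.

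Whether the IFN effect itself differed between the genotypes was tested within that model. A difference was called for 10 members, all larger in USP18-/- cells, against 4.66% of all regions, and for 0 in the other direction, against 2.51%. DESeq2 called 6 and 0, and gave no adjusted p for 12 of the 28 tested members. Scaling to the sum of counts left 6 members and turned the split of all regions from 5743 larger and 3093 smaller to 4677 and 4762. No member had a smaller effect with p under 0.05 before adjustment. Several of these differences lay close to the 2-fold limit. The count fell to 6 without untreated WT replicate 1 or without IFN treated USP18-/- replicate 1, and to 5 without IFN treated WT replicate 2 or without untreated USP18-/- replicate 1. Without the 2-fold limit, the adjusted p was under 0.05 for 13 members.

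Without IFN, no member passed both limits between the genotypes. The test called 0 members higher in USP18-/- cells, against 5.66% of all regions, and 0 lower, against 10.8%. DESeq2 also called 0 in both directions, and gave no adjusted p for 9 of the 28 tested members. With scaling to the sum of counts, 1 member was lower (PARP15 +6357, -1.20), and all regions split into 4974 higher and 16879 lower, from 6983 and 13289. Before adjustment, p was under 0.05 for 6 members on the higher and 5 on the lower side. Without the 2-fold limit, 5 were higher and 1 was lower at an adjusted p under 0.05. The 5 were the TSS regions of PARP9, DTX3L and PARP10 and both PARP11 regions, and the last was the PARP15 TSS region. Under IFN, 14 members were higher in USP18-/- than in WT cells, against 11.3% of all regions, and 0 were lower, against 13.4%. At an unadjusted p under 0.05, 1 was lower, and DESeq2 called 13 higher and 0 lower, with no adjusted p for 9. With scaling to the sum of counts, 9 members were higher, and the split of all regions went from 13913 higher and 16511 lower to 8789 and 24065. The 4 groups enter several of these comparisons, so the counts are not independent of each other.

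The 12 members that rose in USP18-/- cells reached 3.85 to 136 CPM there, from 0.524 to 31.8 CPM in untreated USP18-/- cells. They rose by 2.73-fold to 18.2-fold. Joined only where windows overlapped, they came from 10 stretches of DNA. Among them, DTX3L -7 overlapped PARP9 -68, and PARP14 -1 overlapped PARP14 +379. Over all 33 members, neighbouring windows overlapped in 6 pairs. The 7 members that rose in WT cells came from 5 stretches. Some stretches lay close together, as PARP15 -6500 (chr3:122608615-122609615) and PARP15 -5415 (chr3:122609700-122610700) did, so their values may not be independent.

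**Figure D1:**
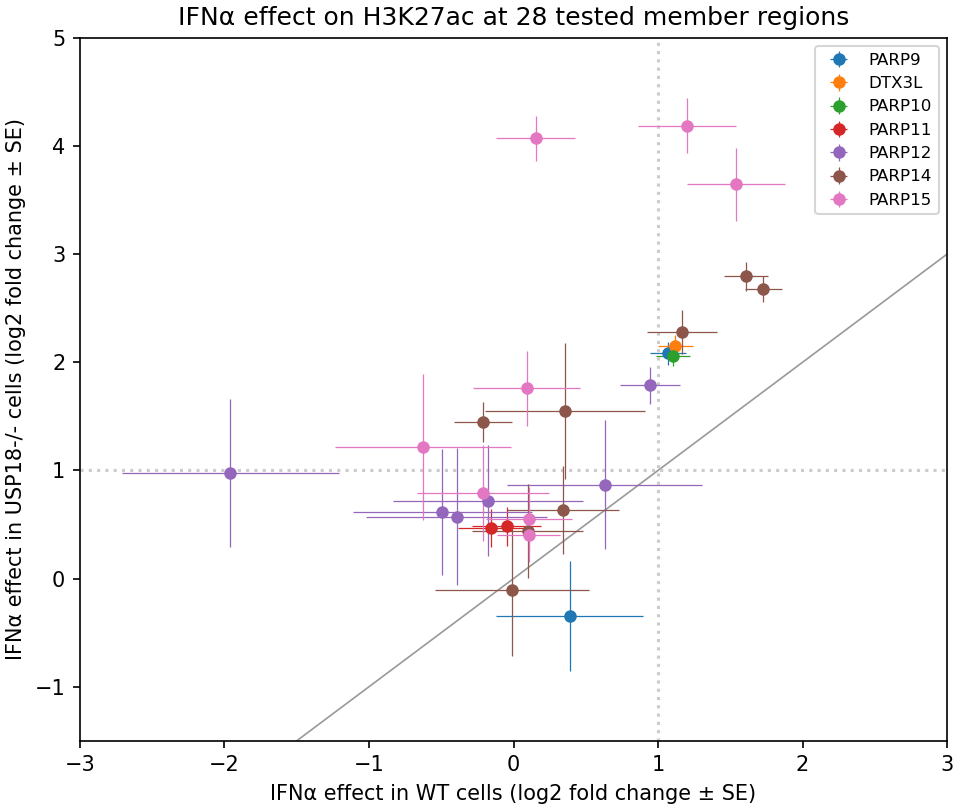
Each point is 1 of the 28 tested member regions, with the log2 fold change of H3K27ac with IFN in WT cells on the x axis and in USP18-/- cells on the y axis. Bars are SE, the solid line marks equal effects and the dotted lines a 2-fold rise. Of the 12 regions that rose in USP18-/- cells, PARP15 -6500 (4.19) and PARP15 -5415 (4.07) stand highest, while PARP11 regions stay below the dotted lines.

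PARP9 and DTX3L share 1 promoter, and their windows (chr3:122564244-122565244 and chr3:122563831-122564831) shared 587 bp, so their values are not independent. At DTX3L -7, WT replicates 1 and 2 gave 17.3 and 15.7 CPM untreated and 38.5 and 33.0 CPM with IFN. In USP18-/- cells, the level was 22.7 and 23.2 CPM before IFN and 108 and 94.6 CPM after it. The groups did not overlap, and IFN treated USP18-/- cells stood far above the rest. On the log2 scale, the region rose with IFN by 1.12 in WT cells (SE 0.12, adjusted p = 2.84e-11) and by 2.15 in USP18-/- cells (SE 0.11, adjusted p = 2.41e-31).

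At PARP9 -68, WT cells gave 13.8 and 13.7 CPM untreated and 30.1 and 27.7 CPM with IFN. The USP18-/- libraries stood at 21.6 and 22.9 CPM untreated and 92.6 and 96.2 CPM with IFN. Here too the 4 groups were separate, with untreated USP18-/- cells between the 2 WT groups. The rise was 1.07 (SE 0.13, adjusted p = 7.01e-10) in WT cells and 2.08 (SE 0.11, adjusted p = 1.23e-30) in USP18-/- cells. Without IFN, USP18-/- cells exceeded WT cells by a log2 difference of 0.69 (SE 0.13, adjusted p = 6.06e-06) at PARP9 -68 and by 0.48 (SE 0.13, adjusted p = 0.0014) at DTX3L -7, both under 2-fold. Under IFN, they were higher by 1.71 (SE 0.10) and 1.51 (SE 0.10), past both limits.

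The IFN effect was larger in USP18-/- cells by 1.01 (SE 0.17, adjusted p = 1.8e-06) at PARP9 -68 and by 1.03 (SE 0.16, adjusted p = 8.04e-07) at DTX3L -7. Both stood on the 2-fold limit. At DTX3L -7, the difference was 0.96 without untreated WT replicate 1, 0.92 without IFN treated WT replicate 2, 0.97 without untreated USP18-/- replicate 1 and 0.88 without IFN treated USP18-/- replicate 1. At PARP9 -68, it was 0.95 without IFN treated WT replicate 2, 0.94 without untreated USP18-/- replicate 1, and 0.996 and 0.96 without IFN treated USP18-/- replicates 1 and 2. It was also under 1 at PARP9 -68 and DTX3L -7 with scaling to the sum of counts (0.88 and 0.89) and to tag directory totals (0.95 and 0.96), and at PARP9 -68 with DESeq2 (0.997). Over the alternatives run, the adjusted p of these differences was at most 0.00022. The other PARP9 region, an intronic window 21781 bp downstream, held 0.726 to 1.44 CPM over all libraries and was called in no comparison.

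PARP10, which attaches single ADP-ribose units, had 1 region, PARP10 +15, on its promoter at chr8:143985956-143986956. WT cells gave 16.7 and 15.9 CPM untreated and 36.5 and 33.5 CPM with IFN. USP18-/- cells held 31.4 and 31.8 CPM untreated, close under IFN treated WT cells, and 136 and 128 CPM with IFN. This was the highest level among the members. The region rose with IFN by 1.10 (SE 0.12, adjusted p = 1.07e-11) in WT cells and by 2.06 (SE 0.10, adjusted p = 1.04e-32) in USP18-/- cells. The genotype difference without IFN, 0.95 (SE 0.12, adjusted p = 7.37e-11), and the difference of the IFN effects, 0.96 (SE 0.15, adjusted p = 9.34e-07), both missed the 2-fold limit. Without IFN treated WT replicate 1, the latter was 1.02 and passed it. Its window held an ISRE core whose middle lay 9.5 bp from the centre.

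PARP14, a large macrodomain enzyme, had the strongest IFN effect in WT cells among the member promoters. At PARP14 -1 (chr3:122680324-122681324), WT cells gave 10.6 CPM in both untreated replicates and 36.1 and 34.5 CPM with IFN. In USP18-/- cells, the values were 12.4 and 12.99 CPM untreated and 81.4 and 80.9 CPM with IFN. The untreated groups lay within 3 CPM of each other, and IFN separated the genotypes. The rise was 1.73 (SE 0.13, adjusted p = 9.08e-19) in WT cells and 2.68 (SE 0.12, adjusted p = 4.21e-35) in USP18-/- cells. Their difference was 0.95 (SE 0.18, adjusted p = 3.7e-05), under the 2-fold limit. The genotype difference without IFN was 0.25 (SE 0.15, adjusted p = 0.187).

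PARP14 +379, in intron 1, shared 620 bp with that window. Its levels were 7.13 and 8.80 CPM in untreated and 25.1 and 23.8 CPM in IFN treated WT cells. Those in USP18-/- cells were 8.03 and 11.0 CPM untreated and 60.8 and 70.5 CPM with IFN. The untreated groups overlapped. It rose by 1.61 (SE 0.15) and 2.79 (SE 0.13), a difference of 1.19 (SE 0.21, adjusted p = 9.96e-06) that was 0.93 without untreated USP18-/- replicate 1.

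Upstream, PARP14 -1522 gave 4.86 and 2.27 CPM in untreated WT cells, a pair over 2-fold apart, and 8.62 and 7.08 CPM with IFN. For USP18-/- cells, they were 3.93 and 3.37 CPM untreated and 16.4 and 19.2 CPM with IFN. It rose by 1.17 (SE 0.24, adjusted p = 0.00158) in WT cells and by 2.28 (SE 0.21, adjusted p = 2.08e-16) in USP18-/- cells, and the difference was 1.11 (SE 0.33, adjusted p = 0.0134). The call in WT cells was lost without untreated WT replicate 2 (0.69) or IFN treated WT replicate 1 (1.02, adjusted p = 0.155). The difference fell to 0.49 without untreated WT replicate 1, and its call was also lost without IFN treated WT replicate 2 (0.98), untreated USP18-/- replicate 2 (1.01, adjusted p = 0.0556) or IFN treated USP18-/- replicate 2 (0.97), with scaling to the sum of counts (0.98) and with DESeq2 (1.11, adjusted p = 0.07).

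The intergenic region PARP14 -18988 (chr3:122661337-122662337) behaved otherwise in WT cells. There, the level was 8.06 and 8.17 CPM untreated and 7.23 and 6.77 CPM with IFN. In USP18-/- cells, it was 5.93 and 5.68 CPM untreated and 18.5 and 13.1 CPM with IFN. Both USP18-/- libraries with IFN exceeded the other 6. The IFN effect was -0.21 (SE 0.20, adjusted p = 0.834) in WT cells, and it rose by 1.45 (SE 0.18, adjusted p = 2.72e-10) in USP18-/- cells. The difference of 1.66 (SE 0.27, adjusted p = 1.92e-06) was called in every alternative run. The genotype difference under IFN, 1.18 (SE 0.18), fell to 0.86 without IFN treated USP18-/- replicate 1 and to 0.90 with scaling to the sum of counts. The 4 remaining PARP14 regions, all intronic, stayed between 0.289 and 2.25 CPM and were not called.

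At the PARP12 promoter, PARP12 +729 (chr7:140062492-140063492), the first exon of a non-coding transcript, the centre lay 41 bp from the RefSeq start. PARP12 carries zinc fingers of the kind found in the antiviral protein ZC3HAV1. WT cells gave 6.71 and 3.63 CPM untreated and 11.1 and 8.51 CPM with IFN. Those of USP18-/- cells were 6.81 and 7.31 CPM untreated and 25.03 and 23.7 CPM with IFN. The untreated WT pair was spread widely, yet both IFN treated USP18-/- libraries were more than 2-fold above all others. It rose by 1.79 (SE 0.17, adjusted p = 3.18e-15) in USP18-/- cells. In WT cells, the change was 0.94 (SE 0.21, adjusted p = 0.00491), under 2-fold, but 1.43 without untreated WT replicate 1 and 1.12 without IFN treated WT replicate 2, which both passed. The difference of the effects was 0.84 (SE 0.28, adjusted p = 0.0301), and passed without untreated WT replicate 2 (1.24) or IFN treated WT replicate 1 (1.05).

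Of the 9 other PARP12 regions, 4 were too low to test, and the 5 tested ones held 0.198 to 1.60 CPM. Of these, 3 passed the filter on low counts only through the IFN treated USP18-/- libraries. PARP12 +44356 was called for the difference of the IFN effects (2.93, SE 1.02, adjusted p = 0.0438), on 2 to 10.5 tags per library. Its WT levels were 1.03 and 0.998 CPM untreated and 0.198 and 0.308 CPM with IFN, and its USP18-/- levels were 0.349 and 0.481 CPM untreated and 0.799 and 0.845 CPM with IFN. The call was lost when any 1 of the 8 libraries was left out, at an adjusted p of up to 0.138, and under both other scalings and with unrounded values.

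**Figure D2:**
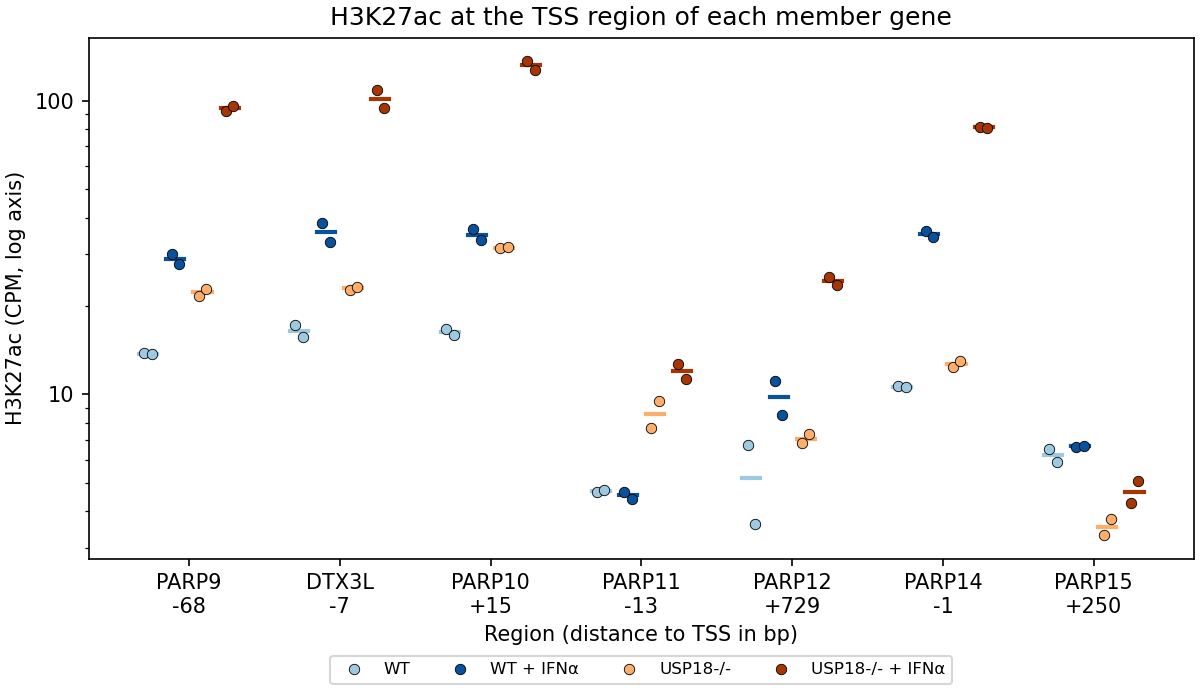
H3K27ac at the tested region nearest to the TSS of each member gene, in CPM on a log axis. Points are the 2 libraries of each group and lines their means. At PARP9, DTX3L, PARP10, PARP11, PARP12 and PARP14 both IFN treated USP18-/- libraries lie above all others. At PARP11 the log2 fold change with IFN in WT cells is -0.05 (SE 0.24), and at PARP15 the WT libraries lie highest.

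The PARP11 promoter carried no 2-fold IFN effect in either genotype. PARP11 has a WWE domain and attaches single ADP-ribose units. Its windows PARP11 -13 and PARP11 +277 (chr12:3872961-3873961 and chr12:3872671-3873671) shared 710 bp. At PARP11 -13, WT cells gave 4.65 and 4.72 CPM untreated and 4.66 and 4.41 CPM with IFN. Levels in USP18-/- cells were 7.68 and 9.53 CPM untreated and 12.7 and 11.3 CPM with IFN. All 4 USP18-/- libraries were above all 4 WT libraries. The IFN effect was -0.05 (SE 0.24, adjusted p = 0.979) in WT cells and 0.48 (SE 0.18, adjusted p = 0.038) in USP18-/- cells, and their difference was 0.53 (SE 0.30, adjusted p = 0.306).

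Between genotypes, PARP11 -13 was higher in USP18-/- cells by 0.87 (SE 0.21, adjusted p = 0.000508) without IFN and by 1.40 (SE 0.20, adjusted p = 8.83e-09) under IFN. Only the latter passed the 2-fold limit. Without untreated USP18-/- replicate 1, the former was 1.02 and passed. PARP11 +277 gave 4.82 to 5.63 CPM in WT libraries, 8.64 and 10.5 CPM in untreated and 14.6 and 11.8 CPM in IFN treated USP18-/- libraries. Its IFN effects were -0.15 (SE 0.23) in WT and 0.47 (SE 0.17) in USP18-/- cells, and it was higher by 1.40 (SE 0.20, adjusted p = 2.93e-09) in USP18-/- cells under IFN. The remaining region, PARP11 -9910, was too low to test. Neither PARP11 promoter window held any of the 3 motifs searched.

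PARP15 showed the largest IFN effects in USP18-/- cells among the members, and they lay more than 1000 bp from its 2 RefSeq starts. PARP15 is a macrodomain enzyme encoded between DTX3L and PARP14. At PARP15 +250 (chr3:122577352-122578352, exon 1), 202 bp from the first start, WT cells gave 6.51 and 5.90 CPM untreated and 6.64 and 6.67 CPM with IFN. The USP18-/- libraries held 3.32 and 3.75 CPM untreated and 4.26 and 5.07 CPM with IFN. All WT libraries were above all USP18-/- libraries, and the difference without IFN was -0.81 (SE 0.24, adjusted p = 0.00461). The IFN effects were 0.10 (SE 0.22, adjusted p = 0.942) and 0.40 (SE 0.25, adjusted p = 0.277). No PARP15 comparison at this window passed both limits.

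Inside the gene and upstream of the second start, PARP15 -5415 (chr3:122609700-122610700) gave 2.69 and 3.27 CPM in untreated and 2.97 and 3.69 CPM in IFN treated WT cells. USP18-/- cells gave 1.92 and 1.73 CPM untreated and 31.4 and 30.4 CPM with IFN. The WT groups overlapped, and the rise was seen in USP18-/- cells. The IFN effect was 0.15 (SE 0.27, adjusted p = 0.931) in WT cells, and it rose by 4.07 (SE 0.21, adjusted p = 5.74e-31), or 16.8-fold, in USP18-/- cells. The difference of 3.92 (SE 0.37, adjusted p = 1.69e-14) was the largest among the members, and 3.76 to 4.08 over the alternatives run.

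PARP15 -6500, its neighbour in the same intron, gave 1.03 and 1.72 CPM in untreated and 2.78 and 3.69 CPM in IFN treated WT cells. USP18-/- cells gave 1.13 and 1.06 CPM untreated and 17.5 and 23.002 CPM with IFN. It rose by 4.19 (SE 0.25, adjusted p = 7.2e-26), or 18.2-fold, in USP18-/- cells. In WT cells, the change was 1.20 (SE 0.34, adjusted p = 0.0688), and the difference was 2.99 (SE 0.49, adjusted p = 1.37e-06). With only the compared groups in the fit, the WT change passed at an adjusted p of 0.049.

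PARP15 +6357 (chr3:122583459-122584459), in intron 1, was the 1 PARP15 region called in WT cells. WT cells gave 1.34 and 1.18 CPM untreated and 4.36 and 2.97 CPM with IFN. USP18-/- cells gave 0.524 and 0.674 CPM untreated and 7.19 and 7.98 CPM with IFN. Untreated USP18-/- libraries were the lowest and their IFN treated counterparts the highest. The rise was 1.54 (SE 0.34, adjusted p = 0.00463) in WT cells, where the call was lost without untreated replicate 1 (1.63, adjusted p = 0.0745), untreated replicate 2 (1.44, adjusted p = 0.176) or IFN treated replicate 1 (1.24, adjusted p = 0.313). It was 3.64 (SE 0.34, adjusted p = 1.11e-15), or 12.5-fold, in USP18-/- cells, from 6 and 7 tags before IFN. The difference was 2.10 (SE 0.54, adjusted p = 0.0033).

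PARP15 -2716, also intronic, gave 2.27 and 1.45 CPM in untreated and 2.68 and 1.23 CPM in IFN treated WT cells. USP18-/- cells gave 0.960 and 1.44 CPM untreated and 4.26 and 3.85 CPM with IFN. It rose by 1.76 (SE 0.35, adjusted p = 2.42e-05) in USP18-/- cells, against 0.09 (SE 0.37, adjusted p = 0.969) in WT cells, a difference of 1.67 (SE 0.52, adjusted p = 0.019). That call was lost without untreated WT replicate 1 (1.33), IFN treated WT replicate 2 (1.22), untreated USP18-/- replicate 1 (1.36) or IFN treated USP18-/- replicate 1 (1.54), and with DESeq2 (1.67, adjusted p = 0.128). The 3 remaining PARP15 regions held 0.349 to 3.86 CPM and were not called.

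**Figure D3:**
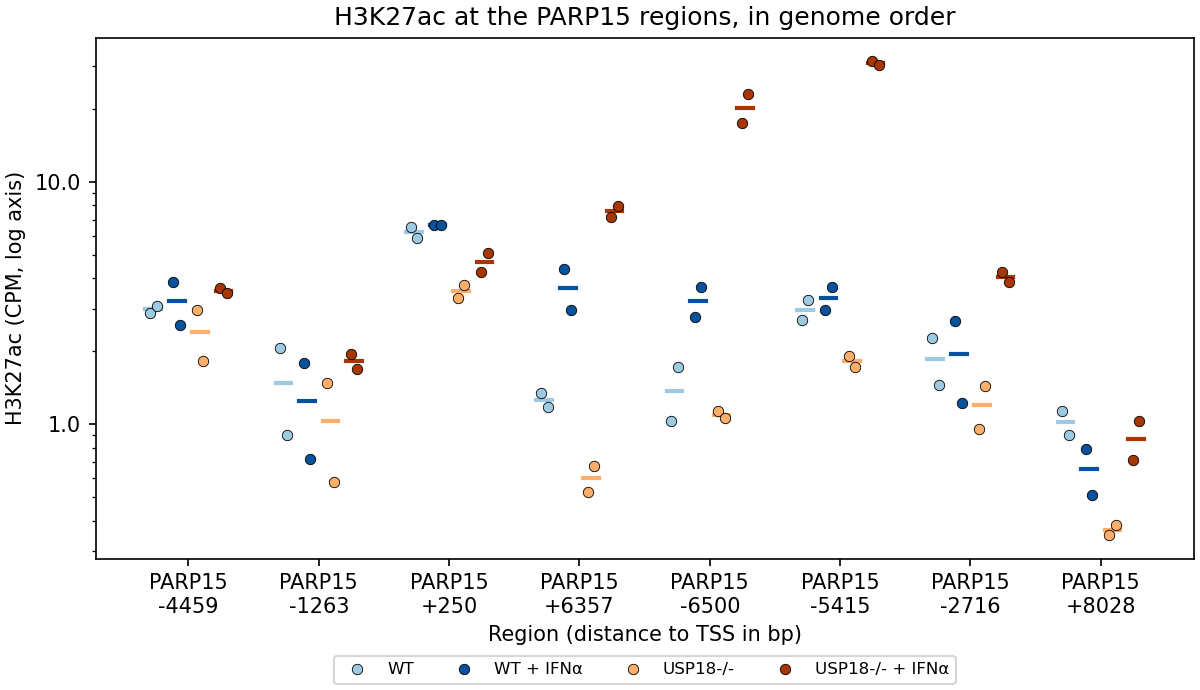
H3K27ac at the 8 PARP15 regions in genome order, in CPM on a log axis, with the 2 libraries of each group as points and their means as lines. IFN treated USP18-/- cells reach 31.4 CPM at PARP15 -5415 and 23.002 CPM at PARP15 -6500, while at PARP15 +250 they lie below all WT libraries.

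Levels at the 7 TSS regions were ordered by group. In untreated WT cells, DTX3L (mean 16.5 CPM), PARP10 (16.3) and PARP9 (13.8) stood highest, followed by PARP14 (10.6), PARP15 (6.20), PARP12 (5.17) and PARP11 (4.68). The replicates of DTX3L and PARP10 overlapped, as did PARP12 with its neighbours PARP15 and PARP11. In IFN treated USP18-/- cells, PARP10 (132), DTX3L (102), PARP9 (94.4) and PARP14 (81.2) led, and PARP12 (24.3), PARP11 (11.98) and PARP15 (4.67) followed. There, the replicates of DTX3L and PARP9 overlapped. PARP15 stood above PARP11 in both untreated WT libraries and below PARP11 and PARP12 in both IFN treated USP18-/- libraries.

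In 10 of 28 tested members, the window held an ISRE core, and 9 of these 10 rose with IFN in USP18-/- cells. Since PARP9 -68 and DTX3L -7 shared a match, as did PARP14 -1 and PARP14 +379, these were 8 places in all and 7 in the regions that rose. Of the 18 without one, 3 rose. Among all tested regions, 4134 of the 21094 with an ISRE core rose with IFN in USP18-/- cells. Over all windows in the table, 17.2% held an ISRE core, and over all regions that rose with IFN in USP18-/- cells 47.0% did. Of the 12 members that rose there, 9 (75.0%) held one. Of the 7 that rose in WT cells, 6 did, against 67.2% of all regions that rose in WT cells. The median log2 fold change in USP18-/- cells was 2.11 for tested members with a match and 0.68 for those without. These medians did not account for level or overlap. Those with a match include promoter windows and overlapping pairs. Of those without, 3 PARP12 regions passed the filter only through the IFN treated USP18-/- libraries. A match is a description of letters, and no test was made of it.

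The middle of the match lay within 50 bp of the window's centre, where the ATAC-seq peak was, in 7 of 11 member windows with one. The offsets were 5.5 bp at DTX3L -7, -9.5 bp at PARP14 -1, -35.5 bp at PARP12 +729, 19.5 bp at PARP15 +6357 and -46.5 bp at PARP15 -5415. Of the 7, 1 (PARP12 -10769) was too low to test. A match lay wholly in the central 200 bp in 7 of the 11 member windows. Of all windows with a match, 8272 of 26068 held one there. Among those that rose with IFN in USP18-/- cells, 2566 of 4134 did. The match at PARP14 +10536 lay 114.5 bp from the centre, and this region held 0.469 to 1.49 CPM with an IFN effect of -0.10 (SE 0.61) in USP18-/- cells. PARP15 -6500, PARP15 -2716 and PARP14 -1522 rose without a match in their own windows, though PARP15 -5415, close beside PARP15 -6500, held one. The PARP15 -5415 match, GAAAGTGAAA, had the same letters as that at PARP14 +10536.

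GAS matches were found in 9 of 33 members, against 26.2% of all windows, and in 5 of the 12 that rose in USP18-/- cells, against 32.9% of all regions that rose there. The ETS-IRF composite was found in 5 members, against 13.6% of all windows and 21.02% of all regions that rose in USP18-/- cells, and these 5 rose there. These were the promoter windows of DTX3L, PARP9, PARP14 and PARP12 and PARP14 +379. In each of them, a composite match overlapped the ISRE core match, at 3 places in all.

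**Figure D4:**
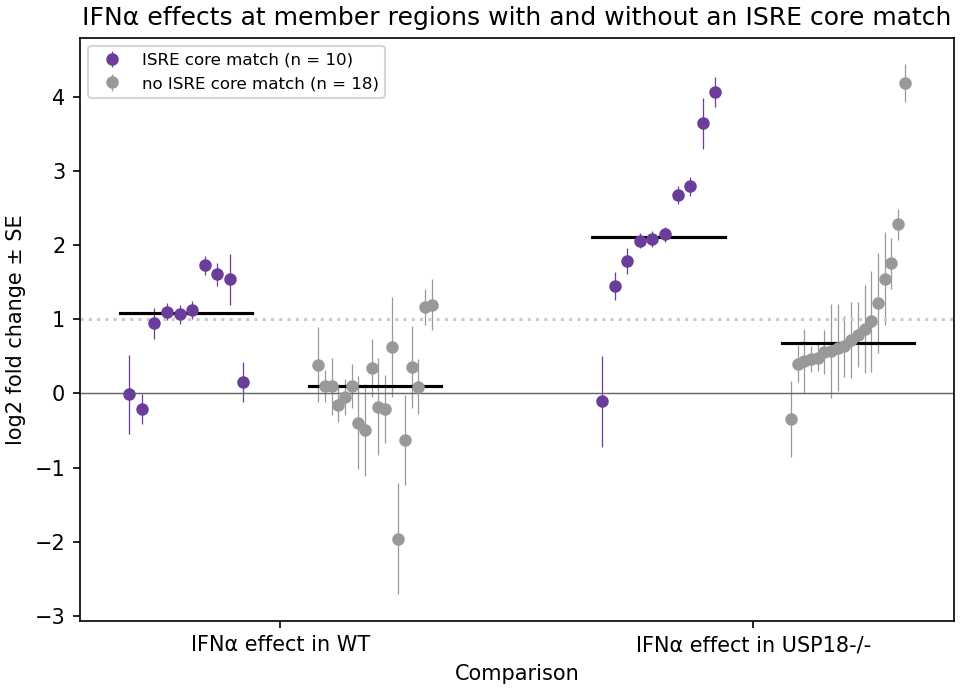
Log2 fold changes (± SE) of H3K27ac with IFN at tested member regions with an ISRE core match (purple) and without one (grey), in WT and USP18-/- cells. Black lines are medians, 1.09 and 0.10 in WT cells and 2.11 and 0.68 in USP18-/- cells, and the dotted line marks a 2-fold rise.

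PARP9, DTX3L, PARP15 and PARP14 lie side by side on chromosome 3, where their 19 regions spanned 186003 bp. Of these 19, 10 rose with IFN in USP18-/- cells and 6 in WT cells, against 7.14% and 0.344% of all tested regions. Of 25 other tested regions in the same stretch and 100000 bp on either side, 2 of them PARP14 regions beyond the distance limit, 1 rose and 2 fell in USP18-/- cells. These were 4% and 8% of the 25, against 7.14% and 4.28% of all tested regions. In WT cells, 0 of the 25 were called by edgeR or DESeq2, and 1 was higher at an unadjusted p under 0.05. The 1 that rose was KPNA1 +11807, in a gene for a nuclear import receptor of the importin alpha family, at 2.97 (SE 0.19) in USP18-/- cells. The 2 that fell were the overlapping windows HSPBAP1 +25925 (-1.72) and HSPBAP1 +25682 (-1.66). At the promoter region KPNA1 -6, the log2 fold change with IFN in USP18-/- cells was 0.53 (adjusted p = 9.62e-05), which missed only the 2-fold limit. The same held at KPNA1 +290 (0.58, adjusted p = 6.1e-06) and KPNA1 +758 (0.61, adjusted p = 3.38e-05). At the promoter region HSPBAP1 -4, it was 0.02 (adjusted p = 0.955).

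**Figure D5:**
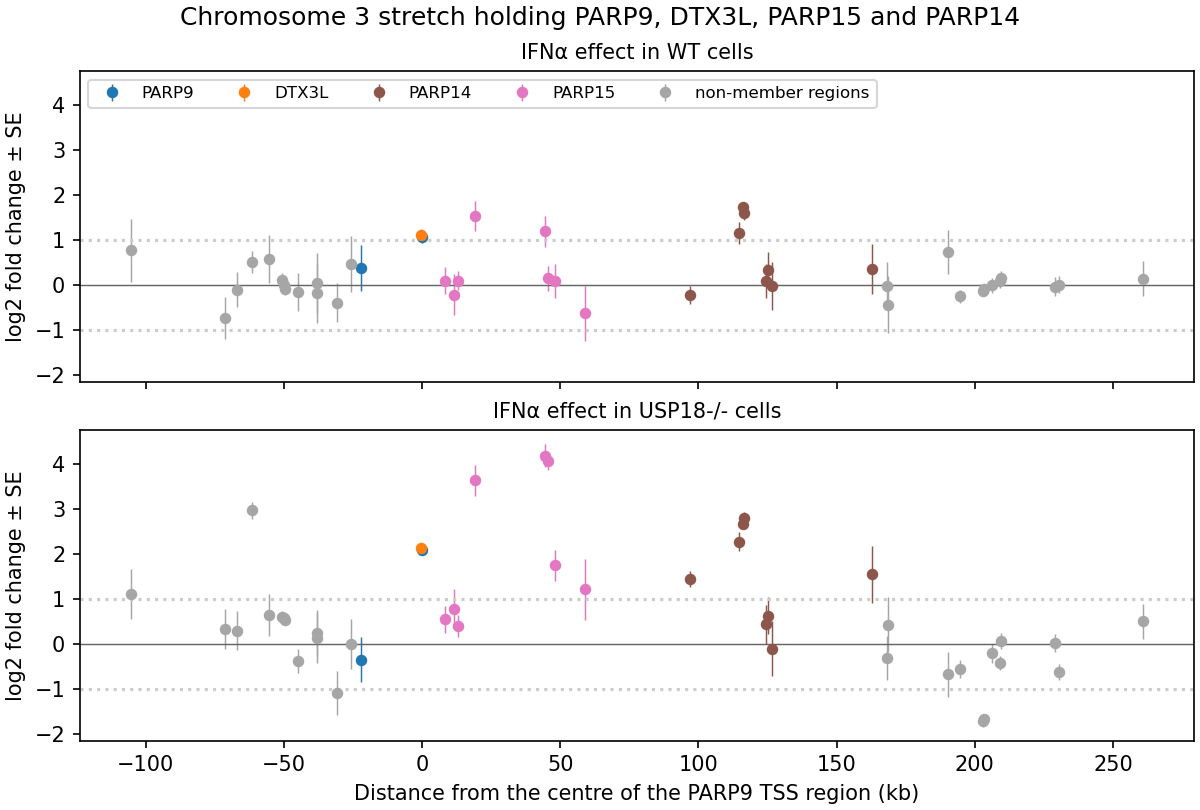
Log2 fold changes (± SE) with IFN in WT cells (top) and USP18-/- cells (bottom) along chromosome 3, by distance in kb from the centre of PARP9 -68. Coloured points are member regions and grey points all other regions, and dotted lines mark 2-fold changes. In USP18-/- cells the 10 member regions called as higher lie near 0 kb, from 19.2 to 48.2 kb and from 97.1 to 116 kb.

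The other genes of ADP-ribosylation were counted in the same way. For 11 other PARP family genes, 0 of 59 tested regions were called with IFN in WT cells by edgeR or DESeq2, with p under 0.05 before adjustment for 7 higher and 3 lower. In USP18-/- cells, 13 rose and 3 fell, against 7.14% and 4.28% of all tested regions. The risers included 5 regions of TIPARP, an enzyme induced through the aryl hydrocarbon receptor, 3 of PARP4 and 2 of ZC3HAV1. The 3 that fell were the overlapping windows PARP8 -30880 (-1.22) and PARP8 -30500 (-1.24), and ZC3HAV1 +14283 (-1.33). At the promoter regions TIPARP +49 (0.38) and ZC3HAV1 -93 (0.94), the change was under 2-fold and not called. ZC3HAV1 +264, next to the promoter of this antiviral RNA-binding protein, rose by 1.30 (SE 0.09), and PARP4 +24 rose by 1.25 (SE 0.11). At PARP1, the DNA-damage responsive PARP, the exonic region PARP1 +28004 rose by 3.17 (SE 0.26) in USP18-/- cells, and the promoter region had a log2 fold change of -0.10 in USP18-/- cells and -0.11 in WT cells, not called in either.

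Among the ADP-ribose hydrolases and macrodomain proteins, 1 of 25 tested regions rose with IFN in WT cells, against 0.344% of all regions. In USP18-/- cells, 5 rose, against 7.14%, and 0 fell in either genotype. Before adjustment, 1 was lower in WT cells and 2 in USP18-/- cells with p under 0.05, and DESeq2 called 0 lower. The risers belonged to ADPRH and ADPRHL2, which remove ADP-ribose from proteins. ADPRHL2 -23 rose by 1.72 (SE 0.13) in USP18-/- cells and ADPRH -9037 by 1.29 in WT and 3.34 in USP18-/- cells. ADPRH +389 was higher in untreated USP18-/- than WT cells by 2.21. For the other Deltex ligases, 0 of 16 tested regions rose in either genotype by edgeR or DESeq2, with p under 0.05 before adjustment for 0 higher regions in WT and 1 in USP18-/- cells, and DTX2 +587 fell by 1.23 in USP18-/- cells.

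The TSS regions of other genes whose levels over the 8 libraries were most like those of PARP9 -68 were IFIT2 (Pearson's r 0.998), APOBEC3F (0.995), CDK17 (0.995), DDX60L (0.994) and PSMD12 (0.994), out of 22639 compared on log2(CPM + 0.5). IFIT2, an antiviral RNA-binding protein, had mean levels of 5.10 and 13.8 CPM in WT cells and 9.11 and 67.2 CPM in USP18-/- cells, each without and with IFN. PSMD12, a proteasome subunit, had 25.4, 31.3, 28.7 and 45.1 CPM in the same order, so the likeness was in the pattern and not in its size. Among the members' own TSS regions, r with PARP9 -68 was 0.995 for PARP10, 0.992 for DTX3L, 0.966 for PARP12, 0.947 for PARP14 -1, 0.756 for PARP11 -13 and -0.22 for PARP15. The 8 libraries share 4 groups, so these values describe the group pattern.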

How the data were processed

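Per the methods and the submitters’ processing notes, the authors mapped H3K27ac ChIP-seq reads of 8 libraries (4 groups of 2) to hg38 with Bowtie2 and counted tags with HOMER, in windows of 1000 bp placed on merged ATAC-seq peaks. The deposited values are estimated counts, not normalized, in steps of 0.5 tags, of which 52.2% were whole numbers. They were rounded to whole counts. All 8 value columns were mapped to libraries, and 0 were left unmapped. Input libraries were not analysed here.

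Where 2 or more of the 8 libraries reached 10 counts, a region was tested with edgeR 4.0.16 (limma 3.58.1, R 4.3.3) by its quasi-likelihood test with TMM scaling, 1 mean per group and Benjamini-Hochberg adjustment over all 123276 regions tested. Calls needed a log2 fold change over 1 in size and an adjusted p under 0.05. Of 33 members, 28 were tested, and the 5 others held 1 to 12.5 tags per library. Log2 fold changes are fitted values. Each edgeR SE is the size of the log2 fold change divided by the square root of the test's F statistic. The study describes the 2 libraries of a group as biological replicates, and the labels only number them. With 2 libraries per group, the smallest of which held 9082433 rounded counts, precision depends on the spread pooled over all regions (common biological coefficient of variation 0.0737).

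The members, gene lists and tests were chosen with earlier results of these data known. The text names, for each gene, the tested region nearest to the TSS, the tested region with the smallest p for IFN in USP18-/- cells, and every region called for IFN in WT cells, for USP18 loss in untreated cells or for the difference of the IFN effects, 16 in all. Other regions are given by ranges, and some were named after their values were seen. The 5 TSS regions most like PARP9's were named by Pearson's r. Motifs were searched as exact letters with Python 3.11.15 and samtools 1.23.1, and all 8 RefSeq promoters used were identical to the hg38 sequence. The region of PARP10 has no sequence shown. The fit and the motif search were tested on simulated data. Alternatives covered DESeq2 1.42.0, scaling, filters, thresholds, the groups fitted, the replicate block, each library left out, the distance to the TSS, overlapping windows and, added after seeing the data, unrounded values.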

Additional observations from a re-analysis of the deposited data

Results flagged for a closer look

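In 10 regions, the IFN effect differed between the genotypes past both limits in the test of the difference itself (USP18-/- minus WT, log2). They were PARP9 -68 (1.01), DTX3L -7 (1.03), PARP12 +44356 (2.93), PARP14 -18988 (1.66), PARP14 -1522 (1.11), PARP14 +379 (1.19), PARP15 -6500 (2.99), PARP15 -5415 (3.92), PARP15 -2716 (1.67) and PARP15 +6357 (2.10). The IFN effect was larger in USP18-/- cells in all 10. The call at PARP12 +44356 rested on at most 10.5 tags in any library.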

How the results depend on the processing

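With 2 libraries per group, members near the 2-fold limit changed sides easily, and members near 1 CPM rested on few tags. The 12 members that rose with IFN in USP18-/- cells numbered 12 with each library left out. Leaving out 1 library gave 5 to 8 members higher with IFN in WT cells, 12 to 14 higher with USP18 loss under IFN, 0 to 1 higher with USP18 loss in untreated cells, 5 to 11 with a larger IFN effect in USP18-/- cells, and 0 lower in each comparison.

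Scaling to the sum of counts shifted the median log2 fold change of all regions to -0.27 for USP18 loss under IFN, -0.16 for USP18 loss in untreated cells, -0.14 for IFN in USP18-/- cells and -0.12 for the difference of the IFN effects, against -0.02 to 0.01 with TMM. It left 9 members higher with USP18 loss under IFN, 6 with a larger IFN effect and 1 lower with USP18 loss in untreated cells. DESeq2 also gave 6 with a larger IFN effect, and no adjusted p for 12 members in that comparison. The stricter filter of 30 counts gave 1 lower with USP18 loss in untreated cells. Without the 2-fold limit, 5 members were higher and 1 was lower in untreated USP18-/- cells. The cause of these changes was not tested.

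The genotype difference without IFN at PARP14 -1522 (0.07) turned to -0.075 with the sum of counts and to -0.0033 with the stricter filter. With 1 library left out, it ran from -0.41 to 0.69, that at PARP15 -6500 from -0.65 to 0.09 (0.087), the WT effect of PARP15 -5415 from -0.0093 to 0.31 and that of PARP15 -2716 from -0.58 to 0.54. None of these was called. Requiring a C after the ISRE core lowered the share of members with a match from 33.3% to 12.1%. Over all windows in the table, it lowered the share from 17.2% to 3.84%.

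The correlation of deviations between same-numbered libraries was -0.003 to 0.058 over all tested regions. Noise at regions with few tags can hide a shared step, so this does not show whether same-numbered libraries were prepared together. With the replicate block, PARP15 -6500 was called for IFN in WT cells (1.21, adjusted p = 0.0475), and over all regions 429 rose and 51 fell there. The block moved no count of members by over 1.5 times.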
